A study of Homo sapiens with 8 samples.

Results

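The aminoacyl-tRNA synthetases were examined in RNA-seq libraries of OVCAR3 cells, a human ovarian cancer line. The 38 genes were chosen by name: 19 cytosolic enzymes, 16 mitochondrial enzymes and the 3 scaffold proteins that hold some of the cytosolic enzymes together. Each gene was found as a single row among the 20165 rows of the count tables, and all 38 passed the filter on low counts, as did 14024 of all rows.

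The study asks how mono(ADP-ribosyl)ation of the ribosomal protein RACK1, and its removal by the hydrolase TARG1, act on translation. There were 4 groups of 2 libraries. In the siRNA experiment, cells received 30 nM siRNA, either a control (siControl) or directed at TARG1 (siTARG1), and were harvested 48 h after transfection. In the RACK1 experiment, cells stably transduced with a pTRIPZ shRNA against endogenous RACK1 and with a pInducer20 vector for HA-tagged RACK1, both induced by Dox, received 1 µg/ml Dox for 48 h. The re-expressed protein was either unchanged (RACK1-WT) or had its modified aspartate and glutamate residues exchanged (RACK1-Mut). RNA came from the lysates used for ribosome profiling, before nuclease digestion. Whether the transduced cells were clones, and which TARG1 siRNA was used here, is not given in the sources used here. The labels only number the libraries, while the study's methods state that its sequencing experiments were repeated with independent biological samples.

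Aminoacyl-tRNA synthetases attach each amino acid to its tRNA, the step that pairs amino acids with codons. The cytosolic enzymes serve the translation of nuclear transcripts, and a separate set of nuclear-encoded enzymes is imported into mitochondria to serve the few proteins made there. GARS1 and KARS1 encode both the cytosolic and the mitochondrial enzyme, and mitochondria make glutaminyl-tRNA by an amidation that needs no enzyme of its own for glutamine. In animals, EPRS1, IARS1, KARS1, LARS1, MARS1, QARS1 and RARS1 assemble with AIMP1, AIMP2 and EEF1E1 into the multi-synthetase complex, while the other cytosolic enzymes remain free of it. Many cytosolic synthetase genes are known targets of ATF4, a transcription factor induced when amino acids are short or when eIF2α is phosphorylated.

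ATF4 binds C/EBP-ATF response elements, and the letters TGATGNAA of such elements were searched on both strands of RefSeq promoters, from 250 bases before to 50 bases after the start of transcription. They are shown because they were found more often in the cytosolic than in the mitochondrial genes, a difference that was not tested. The letters were found in 7 of the 16 cytosolic genes with a promoter in the table, in 1 of 14 mitochondrial genes and in 0 of 3 scaffold genes, against 4.46% of 27305 genes with a promoter in the table (3.62% of 35116 promoters, since some genes have several). In the 20-base windows the matching letters are in capitals, and each window is read 5′ to 3′ on the strand that carries them. Positions are on GRCh38.
AARS1, chr16:70289686-70289693, opposite strand to the gene: cttggcTGATGCAActgcga
CARS1, chr11:3057418-3057425, opposite strand: agaatcTGATGCAAccgccg
GARS1, chr7:30594845-30594852, opposite strand: ggagcaTGATGAAAtcgccg
IARS1, chr9:92293703-92293710, opposite strand: cggaggTGATGCAAcgcgct
MARS1, chr12:57488064-57488071, opposite strand: cctcgcTGATGCAAccggaa
NARS1, chr18:57621815-57621822, same strand as the gene: gctctcTGATGCAAcgccgg
TARS1, chr5:33440967-33440974, opposite strand: accagcTGATGCAAtcgaaa
YARS2, chr12:32756087-32756094, same strand as the gene: cactgcTGATGGAAaaatta

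A match of letters is a description and does not show that a factor binds there. YARS2 was the mitochondrial gene with the letters. Of 27 genes with a promoter from a list of ATF4 and amino acid response targets that holds no synthetase, 8 had them. The other 6 sets of letters searched, some with overlapping matches, were less one-sided. CCAAT, the letters of the CCAAT box, lay in 7 of 16 cytosolic, 9 of 14 mitochondrial and 3 of 3 scaffold genes, against 39.7% of all genes with a promoter. CCGGAAG, found in sites of ETS factors, lay in 9 of 16, 7 of 14 and 1 of 3, against 12.2%. CACGTG, the E-box, lay in 1 of 16, 3 of 14 and 1 of 3, against 8.77%. The YY1 element lay in 2 of 16, 1 of 14 and 1 of 3, against 1.04%. The NRF1 element lay in 1 mitochondrial gene, MARS2, and the CRE, TGACGTCA, in 1 scaffold gene, AIMP2, against 1.52% and 2.25% of all genes with a promoter.

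The labels were checked on the targeted transcripts. OARD1, which encodes TARG1, was at 48.5 and 52 CPM (counts set to equal library sizes) in siControl and at 3.11 and 3.98 CPM in siTARG1. The 3′ untranslated region of RACK1, which the introduced cDNA lacks, was between 291 and 345 CPM in the 4 siRNA libraries and between 15.7 and 19 CPM in the 4 RACK1 libraries. Over the coding sequence of RACK1, where reads of the cell's own transcript and of the cDNA both count, the level was between 3912 and 4363 CPM in the siRNA libraries, at 1743 and 1881 CPM in RACK1-WT and at 1378 and 1438 CPM in RACK1-Mut. Exon counts per library ran from 30989049 to 42668783. Replicates correlated with r between 0.9954 and 0.9964 across rows. Of 10 epithelial and ovarian carcinoma markers, 9 were tested, and CLDN4 lay under the filter with 4 to 11 counts per library. In siTARG1, 2 of these 9 were higher and 5 lower at the threshold given below. That is 77.8%, against 46.6% of all rows (23.5% higher and 23.1% lower). CDH1 (2.82-fold) and KRT18 (0.403-fold) were among them, and the part of these markers in the synthetase results was not tested. Of 12 markers of fibroblasts, endothelium and blood cells, 8 were tested, none above 8 CPM in any library, and CD3E and HBB were at 0 in all 8.

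Levels are given in RPKM, here CPM on the TMM-scaled library size divided by the counted exon length in kilobases, a scale that allows genes of different length to be compared. In siControl, 16 of 17 cytosolic and mitochondrial enzyme pairs for the same amino acid had the cytosolic enzyme higher, counting both chains of the phenylalanine enzyme and both activities of EPRS1. The ratio of cytosolic to mitochondrial level had a median of 4.15. RARS1, the arginine enzyme, led with levels of 145 and 144, followed by SARS1 for serine (131 and 121) and MARS1 for methionine (128 and 113). The first and the others did not overlap, whereas SARS1 and MARS1 did.

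NARS1, for asparagine, and TARS1, for threonine, came next with overlapping levels of 98 and 96.8 and of 98.9 and 95.5. The lowest cytosolic members were VARS1, CARS1 and FARSB, with means of 18.9, 18.9 and 18.4 and overlapping libraries. Of the mitochondrial enzymes, IARS2 for isoleucine (39.2 and 38.2) and RARS2 for arginine (34.5 and 35) were highest. VARS2 for valine was the lowest of all 38, at 3.24 and 3.02, and it also had the fewest reads, between 376 and 695 per library. The most reads of any member in a library were 18434, for LARS1.

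**Figure D1:**
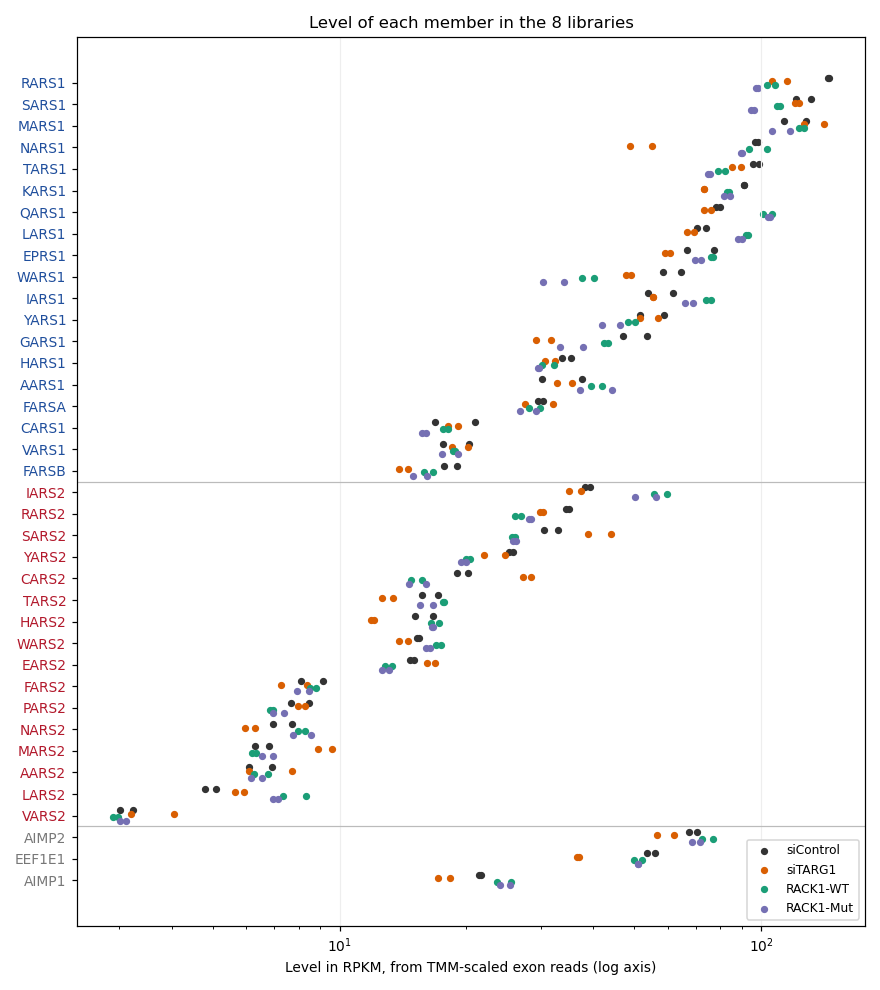
Level of each member (rows, ordered by the siControl mean within cytosolic in blue, mitochondrial in red and scaffold in grey) in RPKM on a log axis, with 1 point per library coloured by group. The 2 siTARG1 points of NARS1, at 48.9 and 55.1, lie left of its other 6 points, all at 89.4 or above, and those of CARS2, at 28.4 and 27.3, lie right of its other points.

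Knockdown of TARG1 was followed by lower levels of several cytosolic synthetases and by changes in both directions among the mitochondrial ones. Between siTARG1 and siControl, 18 of the 38 members passed the threshold of an adjusted p of 0.05 in edgeR's quasi-likelihood test, 4 higher and 14 lower. Over all rows 46.6% passed it, 23.5% higher and 23.1% lower, so the share of members that changed, 47.4%, was near that of all rows. Of the 19 cytosolic enzymes, 7 fell and 0 rose. Of the 16 mitochondrial enzymes, 4 rose and 4 fell, and 1 of the rises, SARS2, is a row that joins other genes. All 3 scaffold rows fell, 1 of which joins other genes. The median log2 fold change was -0.08 for the cytosolic enzymes, -0.05 for the mitochondrial enzymes and 0.01 for all rows. That of the mitochondrial enzymes turned to 0.03 without siControl replicate 1 and was -0.10 without the row of SARS2. The cytosolic median was the lower of the 2 with each library left out, at -0.05 without siControl replicate 1. It was the higher only without the row of SARS2. The order of the 2 medians thus rests on that joined row, and their difference was not tested. In bulk RNA, fewer cells of a type and less RNA per cell cannot be told apart.

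NARS1, which charges the tRNA for asparagine, changed most. It was at levels of 98 and 96.8 in siControl and 48.9 and 55.1 in siTARG1, or 0.534 of the control level (log2 -0.91 with a standard error of 0.08, adjusted p = 4.0e-07). Both siTARG1 libraries lay below every other library of the study, since NARS1 was between 89.4 and 103 in the RACK1 lines. GARS1, the glycine enzyme of both compartments, had levels of 53.6 and 47.1 in siControl and 31.7 and 29.3 in siTARG1. The log2 fold change was -0.72 with a standard error of 0.08, at an adjusted p of 8.5e-06. The groups did not overlap, and the range of log2 values with a library left out was -0.81 to -0.61.

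Among the other free cytosolic enzymes, FARSB and WARS1 also fell. FARSB, the beta chain of the phenylalanine enzyme, was at 19 and 17.7 in siControl against 14.5 and 13.8 in siTARG1 (log2 fold change -0.38, adjusted p = 0.00092). Its partner in the same enzyme, FARSA, the alpha chain, was at 29.6 and 30.4 against 32.1 and 27.6, with overlapping groups and a 95% interval of -0.19 to 0.18 for its log2 fold change. The chains of this tetramer thus had different values, although the difference between them was not tested. WARS1, for tryptophan, an enzyme that interferon γ induces, was at 64.6 and 58.4 in siControl and 47.7 and 49.1 in siTARG1 (log2 fold change -0.35, adjusted p = 0.0021).

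SARS1, YARS1, VARS1, AARS1, CARS1 and HARS1 did not pass the threshold, with log2 fold changes between -0.13 and 0.03. TARS1 came nearest to it, with levels of 98.9 and 95.5 against 85.1 and 89.5 and an adjusted p of 0.067. Of the 7 cytosolic genes with TGATGNAA in the windows printed above, 2 fell (GARS1 and NARS1), and of the 9 cytosolic genes with a promoter but without these letters, 5 fell. The median log2 fold change was -0.06 with the letters and -0.27 without them, a difference that was not tested.

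Within the multi-synthetase complex, 3 of 7 enzymes fell, compared with 4 of the 12 free cytosolic enzymes. These shares, 42.9% and 33.3%, stand beside 23.1% of all rows lower, and the difference between them was not tested. RARS1 fell from 145 and 144 to 106 and 115 (log2 fold change -0.38, adjusted p = 0.00029). KARS1, for lysine, had closely matched replicates, at 91.2 and 91 in siControl and 73.2 and 73.1 in siTARG1 (log2 fold change -0.32, adjusted p = 0.00084). EPRS1, which joins the glutamate and proline enzymes in a single chain, was at 77.3 and 66.8 against 59.1 and 60.8 (log2 fold change -0.27, adjusted p = 0.0095). The higher EPRS1 control library decided that call, since without siControl replicate 1 the log2 fold change was -0.14 and the adjusted p 0.21. IARS1, LARS1 and QARS1 lay between -0.08 and -0.06. MARS1 had the highest value of any cytosolic enzyme, 0.16, with overlapping levels of 128 and 113 against 141 and 126 (adjusted p = 0.14).

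The rows of the 3 scaffold proteins of the complex also fell. AIMP1 was at 21.7 and 21.4 in siControl and at 17.1 and 18.3 in siTARG1 (log2 fold change -0.28, adjusted p = 0.0062). AIMP2 was at 70.4 and 67.3 against 62 and 56.5 (-0.22, adjusted p = 0.026), and that call was lost in 4 alternatives, 3 of which leave out a library. The row of EEF1E1 also holds BLOC1S5 and TXNDC5, and its 6725 exon bases include 1088 coding bases. Over its exons it was lower in siTARG1, with a log2 fold change of -0.58 (adjusted p = 6.1e-06), but over its coding sequence the value was 0.06 (adjusted p = 0.55). The change of the row can therefore not be assigned to EEF1E1.

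**Figure D2:**
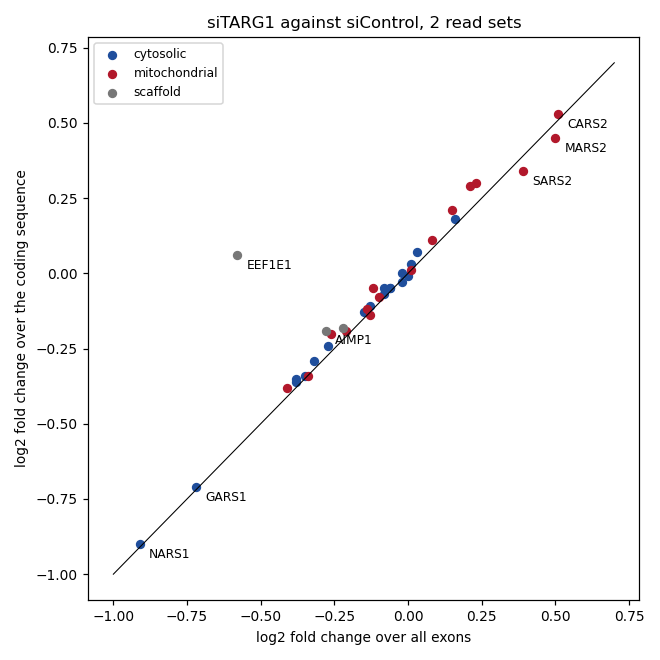
Log2 fold change of each member in siTARG1 against siControl from exon reads (horizontal axis) and from coding-sequence reads (vertical axis), with 1 point per gene coloured by class and a line of equal values. The points follow the line from NARS1 at -0.91 and -0.90 to CARS2 at 0.51 and 0.53, and the row of EEF1E1 stands apart at -0.58 and 0.06.

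Among the mitochondrial enzymes the highest rises were those of CARS2 and MARS2. CARS2, for cysteine, was at 20.2 and 19 in siControl and at 28.4 and 27.3 in siTARG1, or 1.42-fold higher (log2 0.51 with a standard error of 0.08, adjusted p = 0.00012). MARS2, for methionine, was at 6.79 and 6.29 against 9.62 and 8.89 (0.50, standard error 0.09, adjusted p = 0.00031). In both genes the siTARG1 libraries were the highest of all 8. The row of SARS2, for serine, rose from 32.9 and 30.5 to 44.1 and 38.9 (0.39, adjusted p = 0.00069), but it also holds FBXO17, an F-box gene. LARS2, for leucine, rose from 4.81 and 5.1 to 5.94 and 5.66 (0.23, adjusted p = 0.041), and 6 alternatives, DESeq2 among them with an adjusted p of 0.059, lost this call.

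HARS2, for histidine, had the lowest value of the mitochondrial enzymes. It was at 16.7 and 15.1 in siControl and 11.9 and 12.1 in siTARG1, while the 4 RACK1 libraries lay between 16.5 and 17.2 (log2 fold change -0.41, adjusted p = 0.00067). HARS2 and HARS1 start head to head on chromosome 5 of GRCh37, HARS1 from 140052620 to 140071122 on the minus strand and HARS2 from 140071015 to 140078890 on the plus strand. They overlap by 108 bases, and the sources used here do not state that counting used strand, so reads from the overlap cannot be assigned. HARS1 itself had a log2 fold change of -0.13 (adjusted p = 0.15).

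TARS2, for threonine, fell from 17.1 and 15.7 to 13.4 and 12.6 (-0.34, adjusted p = 0.003), with an adjusted p of 0.053 without siControl replicate 1. NARS2 (-0.26, adjusted p = 0.037) and RARS2 (-0.21, adjusted p = 0.022) fell less, and their calls were lost in 5 and 4 alternatives. The other 8 mitochondrial enzymes did not pass the threshold, and their log2 fold changes lay between -0.14 for FARS2 and 0.21 for VARS2.

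**Figure D3:**
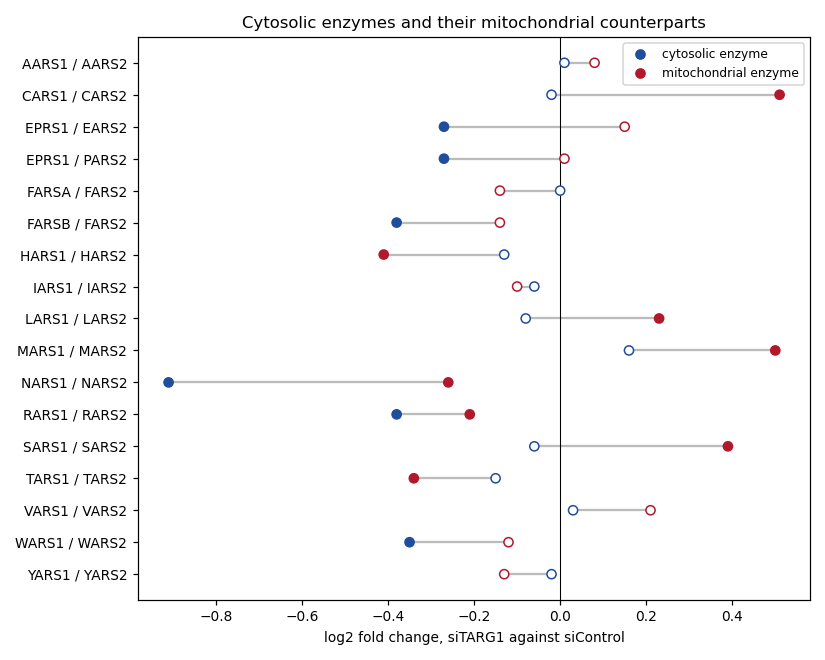
Log2 fold change in siTARG1 against siControl for each cytosolic enzyme (blue) joined by a line to its mitochondrial counterpart (red), with filled circles for an adjusted p under 0.05. The red circle lies right of the blue in 12 of 17 pairs, with the widest gaps for NARS1 and NARS2 (-0.91 and -0.26) and for CARS1 and CARS2 (-0.02 and 0.51).

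Set pair against pair, the mitochondrial enzyme had the higher log2 fold change in 12 of 17 pairs, and 5 pairs had opposite signs. The pairs share libraries, and EPRS1 and FARS2 each stand in more than 1 pair, so the count is a description. CARS1 and CARS2 had almost equal levels in siControl, with ratios of 1.04 and 0.881, and ratios of 0.67 and 0.662 in siTARG1, where CARS2 was the higher. For asparagine, the ratio of NARS1 to NARS2 was 12.7 and 13.9 in siControl against 7.73 and 9.24 in siTARG1. In the histidine, threonine, isoleucine and tyrosine pairs, and in FARSA with FARS2, the mitochondrial enzyme had the lower log2 fold change. The ratio of HARS1 to HARS2 was 2.01 and 2.35 in siControl against 2.59 and 2.69 in siTARG1.

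Summed over enzymes, the cytosolic level was 1279 ± 61.8 (SD, n = 2) in siControl and 1117 ± 4.54 (SD, n = 2) in siTARG1, and the mitochondrial level was 258 ± 8.08 and 262 ± 12.1 (SD, n = 2 each). The ratio of the sums was 5.02 and 4.9 in siControl and 4.14 and 4.39 in siTARG1, without overlap. A two-sided exact permutation test gave p = 0.333. That is the smallest p that 2 against 2 libraries allow, so the test cannot decide whether the ratios differ. Without the joined row of SARS2 the ratios were 5.73 and 5.57 against 4.94 and 5.19. The median level over enzymes was lower in siTARG1 in both sets. Its mean was 61.5 in siControl and 55.3 in siTARG1 for cytosolic enzymes, and 15.1 and 12.5 for mitochondrial enzymes.

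The synthetases also divide into class I and class II by the structure of their catalytic domain. Of the 18 members of class I, 3 rose and 3 fell in siTARG1. Of the 16 of class II, 1 rose and 7 fell. EPRS1, which joins an enzyme of each class and fell, is counted in neither. The shares past the threshold were 33.3% and 50%, beside 46.6% of all rows, and the difference between the classes was not tested.

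Between the RACK1 lines, no synthetase passed the threshold without a replicate block. RACK1-Mut was compared with RACK1-WT to ask what loss of the modified residues does. The lines also differed in RACK1 coding-sequence level, lower in both RACK1-Mut libraries as given above, so the residues and the level cannot be told apart. Of the members, 0 of 38 members passed in edgeR's test, 0 with DESeq2, and 3 had an unadjusted p under 0.05. Over all rows 0.00713% passed, which is 1 row, and 687 had an unadjusted p under 0.05. The 3 members were cytosolic. GARS1 was at 43.4 and 42.4 in RACK1-WT and 33.3 and 37.8 in RACK1-Mut (log2 fold change -0.27, 95% interval -0.45 to -0.09, adjusted p = 0.69). With a replicate block GARS1 alone passed, at an adjusted p of 0.031. WARS1 was at 40.1 and 37.5 against 30.4 and 34.1 (-0.27, interval -0.43 to -0.10, adjusted p = 0.65). SARS1 was at 111 and 109 against 96.1 and 94.6 (-0.21, interval -0.35 to -0.07, adjusted p = 0.74). In each of the 3 both RACK1-Mut libraries lay below both RACK1-WT libraries. The 3 were picked by their p in these same libraries, so this separation is no further support.

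Of the 19 cytosolic enzymes, 17 had a negative log2 fold change in this comparison, with a median of -0.11 and a range of -0.27 to 0.02. Over all rows 48.2% were negative and the median was 0.00. The mitochondrial enzymes had 9 of 16 negative values and a median of -0.02. In siTARG1 against siControl, 16 of 19 cytosolic and 8 of 16 mitochondrial values were negative, beside 49.1% of all rows. The members share libraries, so these counts are a description and were not tested. Between the RACK1 lines, NARS1 was at 103 and 93.3 in RACK1-WT against 90.1 and 89.4 in RACK1-Mut (-0.13, interval -0.29 to 0.03). CARS2 was at 15.7 and 14.8 against 16 and 14.6 (0.01, interval -0.17 to 0.18), with overlapping groups. The ratio of summed cytosolic to summed mitochondrial level was 4.76 and 4.81 in RACK1-WT and 4.53 and 4.58 in RACK1-Mut. The exact permutation test gave p = 0.333, again the smallest possible with 2 against 2 libraries, so it cannot decide here either.

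**Figure D4:**
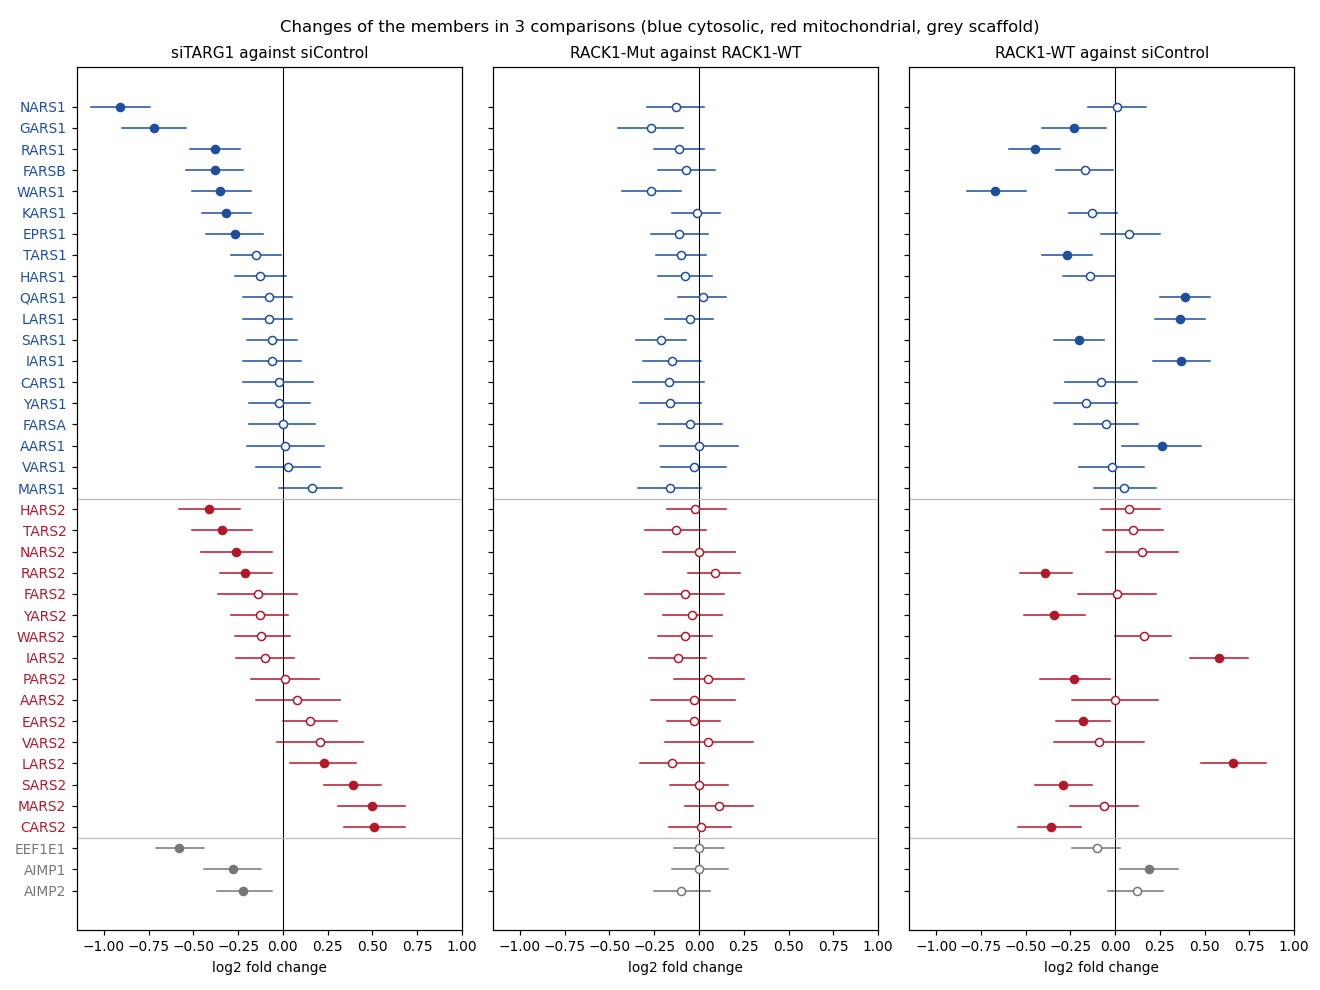
Log2 fold change of each member with its 95% interval in 3 panels, which are the TARG1 knockdown (left), the RACK1 mutation (middle) and RACK1-WT set against siControl (right), with filled circles for an adjusted p under 0.05. In the middle panel no circle is filled and values lie between -0.27 and 0.11, while the outer panels have 18 filled circles each.

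The effects of the TARG1 knockdown and of the RACK1 mutation rest on separate libraries and were compared in the same fit. The difference is the log2 fold change of siTARG1 minus that of RACK1-Mut, each against its own comparison group. It passed the threshold for 14 of 38 members (36.8%), 5 with a positive and 9 with a negative difference. Over all rows 32.4% passed, 16.1% positive and 16.3% negative. NARS1 (-0.78, adjusted p = 7.7e-05) and CARS2 (0.50, adjusted p = 0.004) kept the call under every alternative run. GARS1 (-0.45), HARS2 (-0.39), RARS1 (-0.27), KARS1 (-0.30), FARSB (-0.31) and RARS2 (-0.29) also had negative differences. So did AIMP1 (-0.28) and the joined row of EEF1E1 (-0.57). MARS2 (0.39), SARS2 (0.38), LARS2 (0.38) and MARS1 (0.32) had positive differences. MARS1 passed in neither comparison alone, at 0.16 in siTARG1 and -0.16 in RACK1-Mut. The 12 calls other than NARS1 and CARS2 were each lost in at least 1 alternative. The number of calls fell to 5 without RACK1-WT replicate 1, to 6 without RACK1-WT replicate 2 or siControl replicate 1, and to 7 without siControl replicate 2 or either RACK1-Mut replicate. WARS1, at -0.35 in siTARG1 and -0.27 in RACK1-Mut, had a difference of -0.08 with an interval of -0.31 to 0.15.

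RACK1-WT and siControl cells come from different experiments and differ in vectors, Dox, transfection and RACK1 level, which cannot be told apart. The comparison puts the members of all 4 groups on a single scale. In edgeR's test, 18 of 38 members differed, 7 higher and 11 lower in RACK1-WT, or 47.4%, against 63.3% of all rows, 31.9% higher and 31.4% lower. LARS2 (4.81 and 5.1 in siControl, 8.31 and 7.36 in RACK1-WT, log2 fold change 0.66, adjusted p = 1.2e-05) and IARS2 (39.2 and 38.2 against 59.8 and 55.8, 0.58, adjusted p = 1.1e-05) were highest. Their cytosolic counterparts LARS1 (0.36) and IARS1 (0.37) were higher too, so that both leucine and both isoleucine enzymes were raised, together with QARS1 (0.39) and AARS1 (0.26).

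WARS1 had the lowest value, with 64.6 and 58.4 in siControl against 40.1 and 37.5 in RACK1-WT (-0.67, adjusted p = 4.4e-06). Its ratio to WARS2 was 4.18 and 3.81 in siControl, 3.45 and 3.38 in siTARG1, 2.3 and 2.22 in RACK1-WT and 1.9 and 2.07 in RACK1-Mut. RARS1 (-0.45), RARS2 (-0.39), CARS2 (-0.36), YARS2 (-0.34), the row of SARS2 (-0.29), TARS1 (-0.27), GARS1 (-0.23), PARS2 (-0.23), SARS1 (-0.20) and EARS2 (-0.18) were lower as well. AIMP1 was higher (0.19). The calls of AARS1, GARS1, SARS1, EARS2, PARS2, SARS2 and AIMP1 were lost in at least 1 alternative, and the count fell to 12 without RACK1-WT replicate 1 or siControl replicate 1. NARS1, with the largest fall in siTARG1, had a log2 fold change of 0.01 here (interval -0.15 to 0.17). The comparison shares the siControl libraries with that of siTARG1.

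Genes that act beside the synthetases changed in both directions in siTARG1, where 46.6% of all rows passed the threshold. Of 10 genes that act on charged tRNA or its amino acid, 2 rose and 3 fell (50%). MTFMT, which formylates the mitochondrial initiator methionyl-tRNA made by MARS2, had a log2 fold change of 0.67 (adjusted p = 5.8e-05), and GATB, a subunit of the amidotransferase for mitochondrial glutaminyl-tRNA, 0.43. PSTK (-0.84) and SEPSECS (-0.29), the enzymes that turn seryl-tRNA into selenocysteinyl-tRNA, fell, as did a row that joins DTD2, a deacylase of mischarged tRNA, and HEATR5A (-0.23).

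Of 24 genes of tRNA processing and export, 5 rose and 5 fell, or 41.7%, near the share of all rows. TSEN54, of the tRNA splicing endonuclease (0.89), RPP25, of RNase P (0.81), and XPOT, the tRNA exporter (0.41), were highest. RPP40 (-0.84) and POP5 (-0.60), of RNase P, and the row of ELAC1 (-0.64), which also holds SMAD4, were lowest. Of 22 genes tested for RNA polymerase III and its factors, which transcribe tRNA genes, 4 rose and 5 fell (40.9%), from GTF3C6 (-0.63), GTF3C3 (-0.37) and POLR3A (-0.29) to BDP1 (0.40), POLR3E (0.56) and POLR3G (0.96). Of 14 mitochondrial translation factors, 3 rose and 3 fell (42.9%), from MTIF3 (-0.50), MTIF2 (-0.26) and TACO1 (-0.25) to GUF1 (0.28), the row of TSFM (0.28) and MTRF1 (0.50). The medians of these 4 lists lay between -0.01 and 0.04, beside 0.01 for all rows.

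A list of 33 other genes held ATF4 itself and targets of ATF4 and of the amino acid response. Of these 33, 13 rose and 6 fell in siTARG1, with a median of 0.11 beside 0.01. That is 57.6%, against 46.6% of all rows (23.5% higher and 23.1% lower). GDF15, a stress cytokine (1.08, standard error 0.22), SESN2, a leucine sensor (0.94), and DDIT4, an inhibitor of mTORC1 (0.71), were highest. EIF4EBP1, which represses cap-dependent translation (-1.79, adjusted p = 8.1e-10), PSAT1, of serine synthesis (-1.37), and CTH, of cysteine synthesis (-0.72), were lowest. The list thus held more rises than falls. No cytosolic synthetase rose past the threshold, and a link between the list and the synthetases was not tested. ATF4 is a member of the list, so its values are not a separate observation, and it was named after they were seen. It was at 402 and 402 CPM in siControl, 528 and 527 in siTARG1, 320 and 324 in RACK1-WT and 311 and 314 in RACK1-Mut.

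In RACK1-Mut against RACK1-WT, 0 genes of these 5 lists passed the threshold with edgeR. The ATF4 list had a median of -0.16, with 8 of 33 genes at an unadjusted p under 0.05. The other 4 lists had medians between -0.05 and -0.02, with 0 such genes. Over all rows the median was 0.00, and 687 of 14024 rows had such a p. No list was tested as a set. In RACK1-WT against siControl, where 63.3% of all rows differed, 8 genes of the ATF4 list were higher and 16 lower (72.7%). These ran from JDP2 (-0.91), ADM2 (-0.67) and SLC7A11 (-0.53) to SLC7A5, a leucine transporter (1.53), GDF15 (3.08) and NUPR1 (3.74). The last 2 values rest on few reads in siControl, 170 and 76 counts for GDF15 and 22 and 9 for NUPR1. Of the RNA polymerase III list, 3 were higher and 12 lower (68.2%), with a median of -0.21 beside -0.02 for all rows, from GTF3C6 (-0.76) to POLR3F (1.29). Of the genes that act on charged tRNA, 4 were higher and 0 lower (40%), led by DTD1, a deacylase of D-aminoacyl-tRNA (1.71). The tRNA processing and export list had 4 higher and 8 lower (50%), and the mitochondrial translation factors 3 higher and 3 lower (42.9%).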

How the data were processed

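The data were 8 stranded, rRNA-depleted RNA-seq libraries from OVCAR3 cells, 2 per group, with groups taken from the labels. The ribosome profiling libraries were not analysed here. The authors removed rRNA reads with Bowtie 1.1.2, aligned the rest with TopHat2 2.1.1 (up to 64 hits) to GRCh37 and Gencode 24 transcripts, and used Plastid to count, for each gene, alignments 25 to 51 bases long. The deposited values used are estimated counts, not normalized (39.1% of exon values above 0 were exactly whole numbers), rounded here. Reads shared with paralogs or pseudogenes are uncertain. Symbols and GRCh37 positions came from Gencode 44 by transcript name (94.7% of 36595 matched, and 553 rows, 1.19% of counts, had no symbol). Promoters are RefSeq's, on GRCh38, for 33 of the 38 members.

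Rows were tested in R 4.3.3 by the quasi-likelihood method of edgeR 4.0.16 (which loads limma 3.58.1), after TMM scaling and filterByExpr, over all 8 libraries with 4 residual degrees of freedom. Benjamini-Hochberg adjustment ran over 14024 rows, and the threshold was 0.05. The method was checked on simulated data. Intervals are 95%. With 2 libraries per group the spread between replicates is poorly known, and the 4 groups shared a single estimate of it. The members and lists were chosen with earlier results of these data known, so lists get no test. All members may be named, and of each list the 3 highest and 3 lowest past the threshold. Alternatives were DESeq2 1.42.0, RLE, no filter, a minimum of 10 counts per library, a fit of only the 4 libraries compared, a block for replicate number, sums of rows by symbol, coding-sequence reads and each library left out. Leaving out the 2 joined rows (SARS2, EEF1E1) was added after the data were seen. Tables were made in Python 3.11.15 (pandas 2.3.3, numpy 2.4.6), and exact permutation tests used scipy 1.17.1.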

Additional observations from a re-analysis of the deposited data

How the results depend on the processing

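The number of members past the threshold in siTARG1 against siControl was 18, and between 14 (only the 4 libraries) and 21 (replicate block) under the alternatives, with 16 in DESeq2 and 13 to 18 with a library left out. Of the 18 calls, 11 held under every setting. In RACK1-WT against siControl the count was 18, between 12 and 17 with a library left out, and 11 calls held under every setting. The difference of the siTARG1 and RACK1-Mut effects gave 14 calls, and 5 to 13 with a library left out. It gave 10 without siTARG1 replicate 1, 13 without siTARG1 replicate 2, and 5 to 7 without any other library. Why the counts differed was not tested. In RACK1-Mut against RACK1-WT it was 0 under every setting but the replicate block, which gave 1, GARS1 (adjusted p = 0.031).

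The labels do not say that a replicate number marks a shared batch. Deviations of same-numbered libraries correlated with r = 0.26 in the siRNA experiment and 0.03 in the RACK1 experiment. The main fit had no replicate block, and whether same-numbered libraries share a batch was not tested. With the block the counts were 21 in siTARG1, 1 in RACK1-Mut and 14 in the difference of the effects.

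The median of the cytosolic enzymes in siTARG1 lay between -0.15 and -0.05 with a library left out, and that of the mitochondrial enzymes between -0.09 and 0.03, the latter without siControl replicate 1. With coding-sequence reads, EEF1E1 turned to 0.06 in siTARG1 and to 0.05 in the difference, and its row joins other genes.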
